A study of Mus musculus with 6 samples.

Results

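The proteasome genes measured on 6 expression arrays of splenic CD4+ CD25+ T cells were compared between mice lacking Keap1 in blood-forming cells and wild-type mice. A gene was taken as a member when its array feature, a transcript cluster, carried exactly 1 gene symbol that begins with Psma, Psmb, Psmc, Psmd, Psme, Psmf or Psmg followed by a number, or that is Pomp. Pseudogenes were left out. This gave 49 genes on 49 of the 65528 clusters. They fall into 15 genes of the 20S core, 17 of the 19S regulator, 4 of the immunoproteasome, 8 assembly factors and 3 other regulators, and 2 genes (Psmc3ip and Psme3ip1) match by name only. Psmb5 and Psme2 sit on clusters that also carry other symbols, so neither is a member. Genes were tested when they reached the array median on 3 or more of the 6 arrays. Of the 49 members, 46 did so, each on all 6 arrays, while Psma8, Psmb11 and Psmg3 did not.

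The Keap1_KO group holds 3 arrays (replicates B, C and D) of VAVcreKeapfl/fl mice, labelled Keap1 -/-, in which Cre under the Vav promoter recombines a floxed Keap1 gene throughout the blood lineages and so not in T cells alone. The WT group holds 3 arrays (replicates A, D and F) labelled Keap1 +/+, and the labels do not say whether these mice carry Cre. All mice are given as untreated male C57BL/6, with an age of 10 to 12 months in one label field and 6 to 10 weeks in another. Cells came from spleen by magnetic separation. Every sample is labelled CD4+, but the title of the series has CD4- instead. The arrays are called independent triplicates but are not tied to single mice, so a p-value here reflects array-to-array spread, which may be partly technical. Strings of 3 values per group follow this replicate order throughout.

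The proteasome is the protease that degrades ubiquitin-tagged proteins in the cytosol and nucleus. Its 20S core is a barrel of alpha rings around beta rings that carry the active sites, and the 19S regulator caps the barrel, binds ubiquitin and unfolds substrates with a ring of ATPases. In lymphocytes and under interferon, the immune subunits Psmb8, Psmb9 and Psmb10 replace the standard catalytic subunits, and Psme1 and Psme2 form an alternative activator, which changes the peptides available to MHC class I. Assembly factors such as Pomp build the particle. The transcription factors NRF1 (gene Nfe2l1) and NRF2 (gene Nfe2l2, the protein that KEAP1 marks for degradation) can both raise proteasome genes through antioxidant response elements.

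The sequence NRF2 binds was looked for in the promoters, because the members moved together across arrays. RefSeq promoter windows (build GRCm38.p6, 250 bases before to 50 after the start) were found for 39 of the 46 members that passed. None was found for Psmb1, Psmb2, Psmb7, Psmc3, Psmd3, Psmd7 and Psmg2. The motif shares thus leave out some members with large differences, such as Psmb1 (2.14) and Psmb7 (1.49). The core of the antioxidant response element, TGACNNNGC on either strand, lay in 5 of these 39 genes (12.8%), against 14.0% of all 27025 genes and 12.4% of all windows. The stretches around those matches follow, each read in the gene's direction with the match in capitals. A match is a string of letters and not a shown binding site.
Psmd9 (chr5:123228138-123228188, + strand, 31 bases upstream of the start): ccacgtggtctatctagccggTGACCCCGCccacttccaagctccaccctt
Psmb6 (chr11:70525327-70525360, + strand, 9 bases upstream): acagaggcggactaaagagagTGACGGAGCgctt
Psme4 (chr11:30771747-30771778, + strand, 7 bases upstream): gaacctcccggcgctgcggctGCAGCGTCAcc
Psmc6 (chr14:45329576-45329626, + strand, 227 bases upstream): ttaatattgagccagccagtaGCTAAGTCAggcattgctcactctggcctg
Psmd12 (chr11:107479278-107479310, + strand, 247 bases upstream): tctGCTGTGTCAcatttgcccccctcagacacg

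The NF-Y box CCAAT, on either strand, lay in 15 of the 39 genes (38.5%), against 41.1% of all genes and 37.4% of all windows. The repeat of GAAA in tandem with NN between, an interferon response element in its short form on either strand, lay in 5 of 39 (12.8%, against 3.99% of genes and 3.44% of windows). Those genes were Psmb3, Psmd4, Psmd9, Psme1 and Psmg4, of which only Psme1 belongs to the immunoproteasome class. No match of one motif overlapped a match of another in these windows (0 pairs).

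Proteasome genes had higher means in Keap1_KO cells in nearly every class, while the groups overlapped in most of them. Of the 46 members that passed, 45 had a higher mean in Keap1_KO (56.5% of all 16825 genes tested did), and over all 49 members the count was 47. The median difference, Keap1_KO minus WT on the log2 scale of the deposited values, was 0.86 (1.82-fold), against 0.06 over all genes tested and 0.08 over those annotated as protein-coding. Members were brighter, with a median level of 10.54 against 7.46 and 7.65, and the shares over all genes are not matched for level. Level and difference had a Spearman rho of 0.21 over all genes and 0.20 over the members. In this bulk RNA, fewer cells of a type and less RNA per cell cannot be told apart. No member passed limma at an adjusted p under 0.05 (0 of 46, with 0.0% of all genes called), and 19 of the 46 had an unadjusted limma p under 0.05, against 10.3% of all genes. The lowest limma adjusted p of a member was 0.476.

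**Figure D1:**
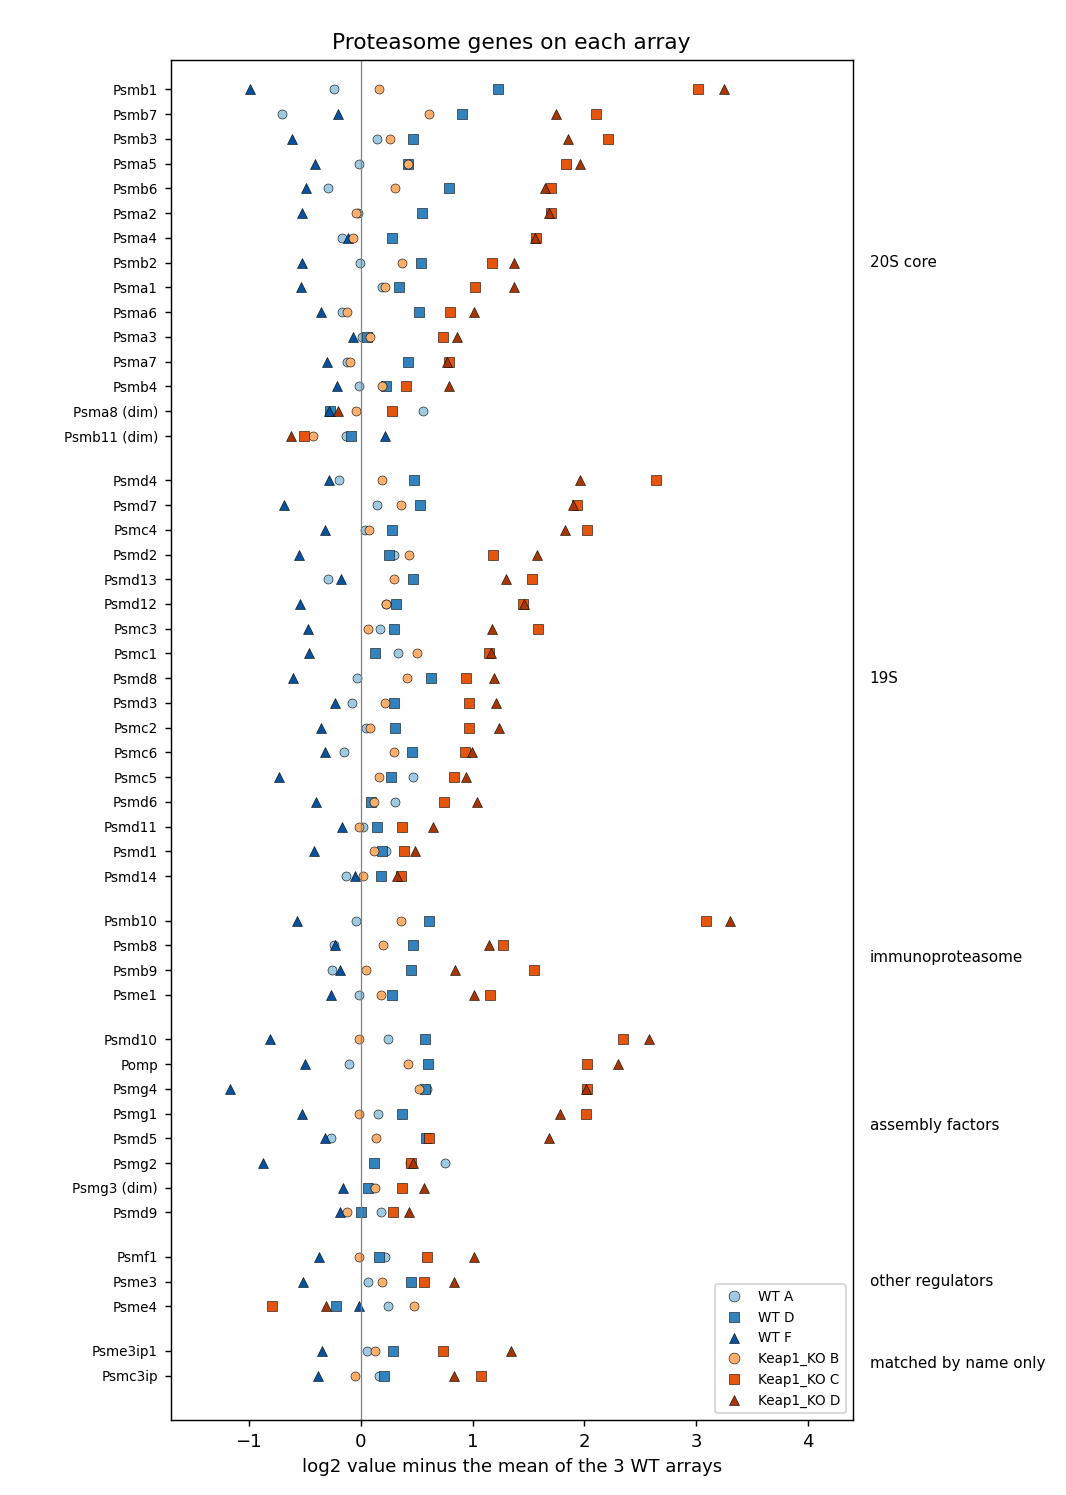
Each row is 1 of the 49 proteasome genes and each point 1 array, plotted as the log2 value minus the mean of the 3 WT arrays (grey line). The Keap1_KO C and D points lie to the right of all WT points in 44 of the 46 genes that passed the intensity filter, and Keap1_KO B lies among the WT points in 42.

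The higher means came mostly from 2 of the 3 Keap1_KO arrays. Against the WT mean, the members' median was 0.18 on Keap1_KO B and 1.18 for the mean of Keap1_KO C and D. Over all genes these were 0.01 and 0.08. Keap1_KO C and D both exceeded every WT array in 44 of the 46 members (31.4% of all genes), all but Psmg2 and Psme4. Keap1_KO B lay inside the WT range in 42 of 46 (65.9% of all genes), and it exceeded all WT arrays in 4, which were Psma3, Psmc1, Psmd2 and Psme4. As a result the groups did not overlap in only 3 members, Psma3, Psmc1 and Psmd2, all higher in Keap1_KO, where 9.11% of all genes were separated in that direction. No member that passed was separated in the lower direction (4.96% of all genes). Leaving out Keap1_KO B makes upward separation the same as Keap1_KO C and D both exceeding every WT array. The count is then by definition the same 44 members and 31.4% of all genes, and it adds no new result. Leaving out WT D raised the separated members to 31 (23.7% of all genes) and leaving out WT A to 5 (12.4%). Without Keap1_KO B, limma with Benjamini-Hochberg adjustment called 9 members (Psma4, Psma5, Psmb3, Psmc4, Psmd4, Psmb10, Pomp, Psmd10 and Psmg1), all higher, where 3.22% of all genes were called higher, and the members' median was 1.18. Each array was left out in turn. This fit drops the Keap1_KO array nearest the WT values, so its calls are not separate support for a group difference. With array weights, limma called 25 members, all higher, where 9.58% of all genes were called higher. The weights are estimated from how well these same arrays agree within their groups, so this fit is not independent support either.

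Among the WT arrays, proteasome genes were lowest on WT F and highest on WT D. WT F was the lowest of all 6 arrays in 39 of the 46 members (34.4% of all genes), and WT D the highest WT array in 36 (46.8% of all genes). The median range over the 3 WT arrays was 0.79 in members and 0.54 over all genes, while Keap1_KO C and D differed by a median of 0.23 in both.

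The 20S core genes had a median difference of 1.02 over the 13 that passed, with all 13 higher in mean. Psmb1, a beta subunit without an active site, had the largest difference in this class. It read 11.06, 12.51 and 10.30 in WT and 11.45, 14.31 and 14.54 in Keap1_KO, a difference of 2.14 (SE 0.95, limma adjusted p = 0.476). Keap1_KO B stood below WT D, so the groups overlapped. Psmb7, the standard catalytic subunit with trypsin-like activity, read 11.01, 12.62 and 11.51 in WT and 12.33, 13.82 and 13.46 in Keap1_KO (difference 1.49, SE 0.54, limma adjusted p = 0.476). Here WT D again lay above Keap1_KO B. The structural subunit gene Psmb3 read 10.18, 10.50 and 9.42 against 10.29, 12.24 and 11.89, and the difference was 1.44 (SE 0.55).

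The alpha genes, whose products form the outer rings and gate the barrel, gave a median of 0.87 over 7 genes, and the beta genes 1.33 over 6. Psma3 had the tightest WT values of the members, at 13.87, 13.91 and 13.78, and read 13.94, 14.59 and 14.72 in Keap1_KO (difference 0.56, SE 0.24, limma adjusted p = 0.476, exact permutation p = 0.1, the smallest that 3 arrays against 3 allow). Every Keap1_KO value was above every WT value. The lowest difference among the 13 was that of Psmb4, a beta subunit without an active site, at 10.02, 10.26 and 9.82 in WT and 10.22, 10.44 and 10.82 in Keap1_KO (0.46, SE 0.22). Differences of the other 8 lay between 0.49 for Psma7 and 1.41 for Psma5, and their groups overlapped. Leaving out Keap1_KO B raised the class median to 1.56.

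Core subunits of other tissues stayed dim. Psma8, the alpha subunit of testis, lay between 4.42 and 5.26 over the 6 arrays, and Psmb11, the catalytic subunit of thymic cortical epithelium, between 3.85 and 4.69. Both were below the median of every array. Psmb11 read 4.34, 4.39 and 4.69 in WT and 4.05, 3.97 and 3.85 in Keap1_KO, so the groups did not overlap, and a dim value of this kind gives no fold (difference -0.52, limma adjusted p = 0.563 in the fit without the intensity filter).

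The 19S regulator had a median difference of 0.85, and all 17 of its genes were tested and higher in mean. The 6 ATPase genes (Psmc1 to Psmc6) and the 11 non-ATPase genes had medians of 0.85 each. Psmd4, a receptor for ubiquitin chains, read 9.28, 9.95 and 9.19 in WT and 9.66, 12.11 and 11.44 in Keap1_KO (difference 1.60, SE 0.62, limma adjusted p = 0.476). Keap1_KO C was the highest array and Keap1_KO B lay below WT D. Psmd7, the structural partner of the deubiquitinase in the lid, read 11.80, 12.18 and 10.97 against 12.01, 13.59 and 13.55 (1.40, SE 0.52). Psmc4, an ATPase of the base, read 8.41, 8.66 and 8.06 against 8.45, 10.40 and 10.20 (1.31, SE 0.53), again with Keap1_KO B below WT D.

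Psmd2, a scaffold that docks shuttle factors, and the ATPase gene Psmc1 were the 19S genes whose groups did not overlap. Psmd2 read 10.24, 10.20 and 9.39 in WT and 10.38, 11.13 and 11.51 in Keap1_KO (difference 1.06, SE 0.37). Psmc1 read 11.99, 11.79 and 11.20 against 12.16, 12.80 and 12.83 (0.94, SE 0.29), and both had a limma adjusted p of 0.476. In both, Keap1_KO B was the lowest array of its group and stood just above the highest WT array. The lowest difference was that of Psmd14, the deubiquitinase that removes ubiquitin from substrates, at 10.95, 11.26 and 11.03 in WT and 11.10, 11.44 and 11.40 in Keap1_KO (0.23, SE 0.18). The other 11 lay between 0.33 for Psmd1, the other large scaffold, and 1.04 for Psmd13, and their groups overlapped.

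**Figure D2:**
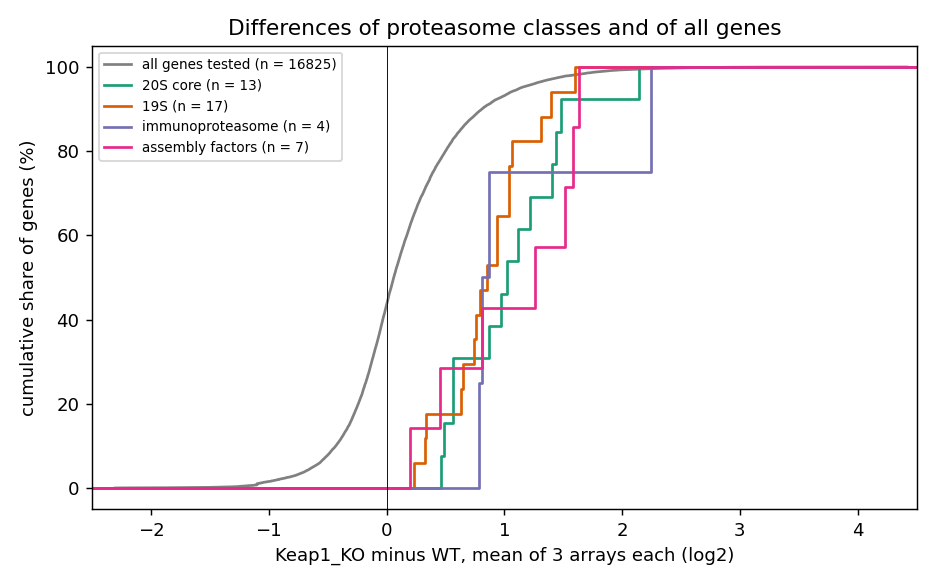
Cumulative share of genes (vertical axis, percent) against the difference Keap1_KO minus WT (horizontal axis, log2, means of 3 arrays each), for the 4 classes and for all genes tested. The class curves lie to the right of the grey curve, with medians of 1.02, 0.85, 0.84 and 1.26 for 20S core, 19S, immunoproteasome and assembly factors against 0.06.

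The 4 immunoproteasome genes were higher in mean by a median of 0.84. Psmb10, the immune subunit with trypsin-like activity, had the largest difference of all 49 members. It read 7.45, 8.11 and 6.93 in WT and 7.86, 10.58 and 10.80 in Keap1_KO (difference 2.25, SE 0.81, limma adjusted p = 0.476). The values of Keap1_KO C and D stood more than 2 above the highest WT value, and Keap1_KO B stood below it. Psmb8, the immune chymotrypsin-like subunit, read 7.68, 8.38 and 7.68 against 8.11, 9.19 and 9.07 (0.87, SE 0.35). Psmb9, which takes the place of Psmb6, read 7.25, 7.96 and 7.32 against 7.56, 9.06 and 8.36 (0.81, SE 0.41). Psme1, a subunit of the interferon-induced activator, read 8.25, 8.54 and 8.0 against 8.45, 9.42 and 9.27 (0.78, SE 0.30). In each of these the groups overlapped through WT D and Keap1_KO B.

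The 2 ratios of immune subunits to the standard subunits they replace differed in opposite directions in mean, and the groups overlapped in both. The log2 ratio of Psmb9 to Psmb6 was lower in Keap1_KO by 0.41 (a difference of -0.41), and the ratio of Psmb10 to Psmb7 was higher by 0.76. Exact two-sided permutation tests gave p = 0.3 and p = 0.2, both 0.3 after Benjamini-Hochberg adjustment over these 2 ratios. The smallest p that 3 arrays against 3 allow in this test is 0.1, so neither ratio could have passed at 0.05. These tests therefore cannot decide whether the ratios differ between the groups. The Psmb10 to Psmb7 ratio, set to a WT mean of 0, was 0.66, -0.30 and -0.36 in WT and -0.25, 0.98 and 1.56 in Keap1_KO, so WT A lay above Keap1_KO B. Psmb8 has no partner among the members, since Psmb5 shares its cluster with the microRNA gene Mir686. That cluster, which cannot be given to either gene, read 10.25, 11.77 and 8.81 in WT and 11.04, 14.89 and 15.00 in Keap1_KO, a difference of 3.37 with the groups overlapping.

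**Figure D3:**
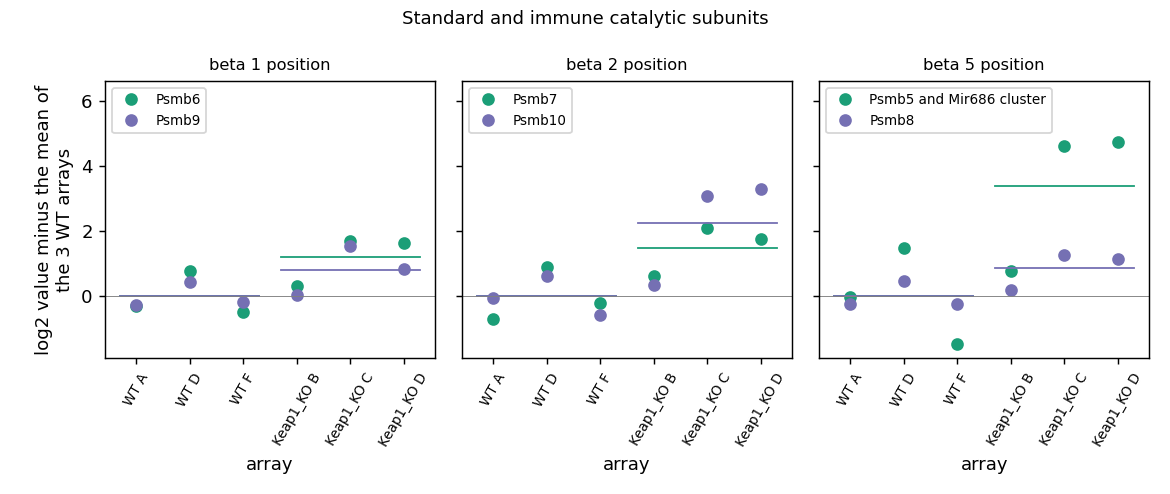
Each point is 1 array, plotted as the log2 value minus the mean of the 3 WT arrays, for the standard catalytic subunit (green) and the immune subunit (purple) at each active position, and horizontal lines are group means. Psmb10 has a larger difference than Psmb7 (2.25 and 1.49), Psmb9 a smaller one than Psmb6 (0.81 and 1.22), and WT D lies above Keap1_KO B in every series shown.

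Assembly factors had the largest class median, 1.26 over the 7 that passed, all higher in mean. Psmd10, a chaperone of the 19S base, read 10.70, 11.03 and 9.64 in WT and 10.44, 12.81 and 13.04 in Keap1_KO (difference 1.64, SE 0.75, limma adjusted p = 0.478). Keap1_KO B lay below 2 of the 3 WT arrays. Pomp, which directs the last steps of core assembly, read 12.24, 12.95 and 11.85 against 12.77, 14.37 and 14.64 (1.58, SE 0.55, limma adjusted p = 0.476). Psmg4, a chaperone of the alpha ring, read 11.04, 11.02 and 9.28 against 10.96, 12.46 and 12.46 (1.52, SE 0.62), with WT F far below the other WT arrays.

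Its partner Psmg3 was dim, at 4.67 to 4.92 in WT and 4.95 to 5.39 in Keap1_KO, and was not tested with the filter. Psmg1 and Psmg2, which form a dimer, differed in pattern. Psmg1 read 10.08, 10.30 and 9.41 in WT and 9.91, 11.95 and 11.71 in Keap1_KO, while Psmg2 read 10.24, 9.62 and 8.62 against 9.94, 9.94 and 9.96. WT A was thus the highest array for Psmg2. The base chaperone gene Psmd9 had the lowest difference of the class, at 6.90, 6.71 and 6.53 against 6.59, 7.00 and 7.14 (0.20, SE 0.21). Psmd5, another base chaperone, differed by 0.81 (SE 0.45). Without Keap1_KO B the class median was 1.90.

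Alternative regulators differed less. Psme3, a nuclear activator, read 11.55, 11.93 and 10.97 in WT and 11.67, 12.05 and 12.32 in Keap1_KO (difference 0.53, SE 0.30), and Psmf1, a regulator first described as an inhibitor, differed by 0.53 (SE 0.31). Psme4, an activator linked to chromatin, was the only member that passed with a lower mean in Keap1_KO. It read 10.06, 9.59 and 9.80 in WT and 10.29, 9.02 and 9.50 in Keap1_KO (-0.21, SE 0.34, limma adjusted p = 0.785). Keap1_KO B was its highest array and Keap1_KO C its lowest, and its promoter holds one of the 5 antioxidant response element cores printed above. The genes matched by name only were Psmc3ip, a meiotic recombination factor (0.62, SE 0.34), and Psme3ip1, a partner of the Psme3 protein (0.73, SE 0.35). Leaving both out gave a median of 0.87 over 44 genes.

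Genes around the proteasome differed less than its subunits. Of 16 tested proteasome partners (shuttle factors, deubiquitinases and unfoldases), 10 had a higher mean, none passed limma at an adjusted p under 0.05 and the median was 0.18. Uchl5, a proteasome-bound deubiquitinase, differed by 0.90 (SE 0.40) and the redox partner gene Txnl1 by 0.88 (SE 0.45), both with overlapping groups, and Ufd1, a cofactor of the unfoldase VCP, by 0.76 (SE 0.37). Ube3c, a proteasome-bound ubiquitin ligase, read 10.62, 10.59 and 10.47 in WT and 10.33, 9.35 and 9.97 in Keap1_KO (-0.68, SE 0.27), and the groups did not overlap. The shuttle factor gene Rad23b was also lower in Keap1_KO without overlap (-0.48, SE 0.22). These 2 of the 16 partners stand beside 4.96% of all genes separated downward. No partner was separated upward, against 9.11% of all genes. Of 9 tested genes that control proteasome transcription, 6 had a higher mean and none passed (median 0.05). Nfe2l1 read 10.99, 10.80 and 10.26 in WT and 10.63, 10.21 and 10.56 in Keap1_KO (-0.22, SE 0.24), with overlapping groups. Nfe2l2 read 8.73, 9.64 and 8.41 against 9.07, 10.07 and 10.66 (1.01, SE 0.49), with Keap1_KO B below WT D. Maff, a small partner of NRF proteins, differed by 0.58 (SE 0.43) and Nfyb, a subunit of NF-Y, by 0.19 (SE 0.31). Of the ubiquitin genes and activating enzymes, Uba6 alone was matched to a cluster with 1 symbol (-0.20, SE 0.19).

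Genes of MHC class I presentation, a list that also holds the regulators Irf1, Irf2 and Stat2, gave 10 of 11 higher means and a median of 0.38, with none past the threshold of limma. Tapbpl, a peptide editor of MHC class I, read 9.64, 9.92 and 9.82 in WT and 9.99, 11.18 and 11.22 in Keap1_KO (1.01, SE 0.35). Tap1, the peptide transporter whose gene neighbours Psmb9, read 7.98, 8.0 and 7.88 against 8.25, 9.19 and 8.86 (0.81, SE 0.26). In both, all Keap1_KO values exceeded all WT values, and the limma adjusted p was 0.476. Tap2 was separated as well, at 6.99, 7.13 and 7.09 in WT and 7.55, 7.31 and 7.51 in Keap1_KO (0.38, SE 0.16), with Keap1_KO B its highest array. These 3 of 11 stand beside 9.11% of all genes separated upward. The chaperone gene Calr (0.92, SE 0.56) and the interferon regulator gene Irf1 (0.78, SE 0.43) overlapped between groups.

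Established NRF2 targets were set beside the proteasome genes, from a list written with earlier results of these data known. Of 13 tested, 13 had a higher mean, with a median of 1.04, and none passed limma over all genes. Nqo1, a quinone reductase, read 4.68, 4.69 and 5.03 in WT and 8.50, 7.55 and 9.14 in Keap1_KO (difference in log2 values 3.60, SE 0.40, limma adjusted p = 0.310). Nqo1 lay below the array median on every WT array, alone among the 13, so it passed the intensity filter through the Keap1_KO arrays, and its dim WT values give no fold. Gstm1, a glutathione transferase, differed by 2.87 (SE 0.62), Taldo1 of the pentose phosphate pathway by 1.69 (SE 0.55) and catalase (Cat) by 1.61 (SE 0.49). Keap1_KO B exceeded every WT array in 11 of these 13 genes, Nqo1 among them, against 4 of the 46 proteasome members and 18.9% of all genes. Because the list was written with earlier results known, this count is a description and not a test. Keap1 itself was dim, did not pass the filter, and read 5.30, 5.41 and 5.77 in WT and 4.87, 4.89 and 4.70 in Keap1_KO. Values this dim cannot rank the Keap1_KO arrays, and the extent of Keap1 loss on each array was not tested. Whether the probes lie in the floxed part of Keap1 is not known here.

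**Figure D4:**
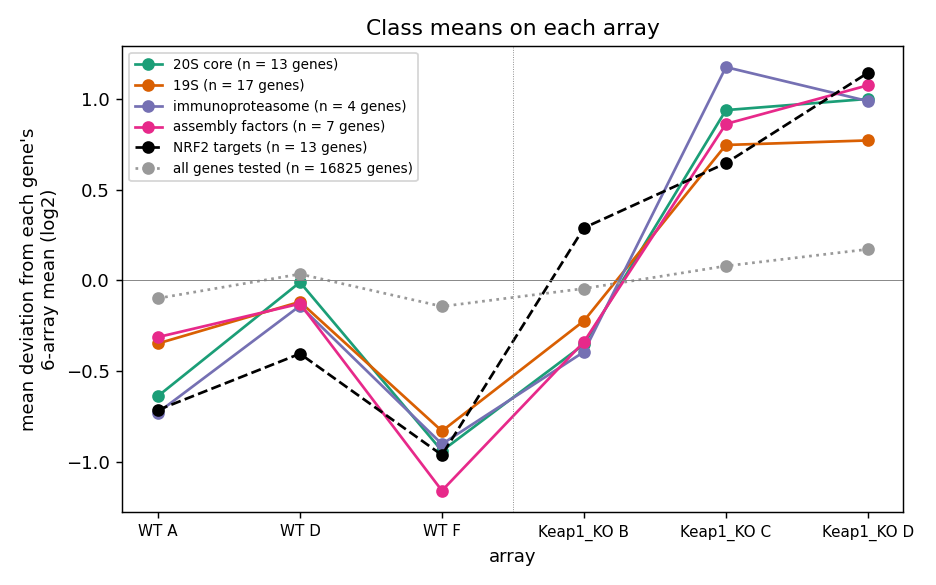
Mean deviation of the 20S core, 19S, immunoproteasome and assembly factor genes, of 13 NRF2 targets and of all genes tested from each gene's 6-array mean (vertical axis, log2) on each array. The 4 proteasome classes drawn lie between -0.39 and -0.22 on Keap1_KO B, within the range of the WT arrays, where the NRF2 targets, Nqo1 included, lie at 0.29.

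Values per array show how the classes moved. The mean deviation of the 46 members from their 6-array means was -0.43, -0.08 and -0.89 in WT and -0.28, 0.80 and 0.87 in Keap1_KO. Over all genes tested, these values ran from -0.14 to 0.17. The 3 other regulators lay at 0.07 on Keap1_KO B, against -0.45 to 0.03 in WT. The first principal component of the arrays over all genes, which held 66.6% of the variance, ordered the arrays in a like way, with -37.1 for WT A, 4.54 for WT D, -70.0 for WT F, -30.0 for Keap1_KO B and 60.5 and 72.1 for Keap1_KO C and D. With that component as a covariate, the members' median difference was 0.16 and 38 of 46 were higher. The class medians were 0.14 for 20S core, 0.19 for 19S, 0.19 for the immunoproteasome and 0.09 for assembly factors. The component was computed from these same genes, members included, and was highest on Keap1_KO C and D. As a covariate it therefore takes up part of the group difference, and this fit cannot tell genotype from another difference between arrays.

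Markers of other cells also differed between arrays. The cells carried the labelled T cell genes, with Cd3e at 14.79 ± 0.48 in WT and 15.74 ± 0.62 in Keap1_KO (SD, n = 3), Cd4 at 11.78 ± 0.58 and 12.81 ± 0.63, and Il2ra at 13.93 ± 0.22 and 13.88 ± 0.30, whereas Foxp3 had no cluster with 1 symbol. Of 12 tested CD4 T cell and Treg markers, a list that also holds Cd8a and Cd8b1, 10 had a higher mean, with a median of 0.62, and Keap1_KO C and D exceeded every WT array in 8. Their mean deviation was -0.39, -0.03 and -0.61 in WT and -0.26, 0.64 and 0.65 in Keap1_KO, so the mean of this list was high and low on the same arrays as that of the proteasome genes. Some Treg markers did not follow that mean. Il2ra (difference -0.05) and Ikzf2 (-0.11) were lowest on Keap1_KO D, at 13.60 and 14.92, and Ctla4 (0.08) was highest on WT F, at 12.42. The receptor gene Tnfrsf18 differed by 2.35 (SE 0.79) and Cd8b1, a CD8 chain, by 1.14 (SE 0.79), both with overlapping groups. Neutrophil markers had 13 of 15 genes tested, 12 of them higher in mean, and a mean deviation of -1.26 to -0.09 in WT and of -1.15, 0.65 and 2.77 on Keap1_KO B, C and D. Mmp9 and Padi4 lay below the filter. With that deviation as a covariate the members' median was 0.46, and 46 of 46 were higher. Mean deviations on Keap1_KO B, C and D were 0.09, -0.48 and 0.95 for B cell markers (8 of 9 genes tested, -1.02 to 0.79 in WT), and -0.33, -0.16 and 1.26 for NK cell markers (7 of 8, -1.39 to 0.84). They were -0.21, 0.04 and 0.84 for macrophage and dendritic markers (8 of 12, -0.91 to 0.51, with Cd14 and Xcr1 below the filter) and 0.03, 0.16 and 0.36 for erythroid markers (4 of 8, -0.44 to 0.07). The neutrophil deviation was itself highest on Keap1_KO C and D, so the fit with it cannot divide the proteasome differences between genotype and neutrophil content. The part of the other 4 lists and of the T cell markers in those differences was not tested.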

How the data were processed

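Total RNA (40 ng per sample) was amplified and hybridised to 1-colour Affymetrix arrays. The authors deposited log2 values, 1 per transcript cluster and array. The submitters' processing notes name RMA, Affymetrix Expression Console and Transcriptome Analysis Console without versions or roles. The design text names a Mouse Gene array, but the row identifiers match the annotation of another Affymetrix mouse array, through which clusters were named. The build is not stated. Deposited values reach 19.93, above the 16 of a 16-bit scanner, so a rescaling that is not stated stands behind them and folds hold on this scale only. No member exceeded 16.

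Of 65528 clusters, 30354 had 1 symbol, 2118 several and 33056 none here. Symbols were updated by Entrez identifier for 22586. The brightest cluster past the filter stood for a gene. Keap1_KO and WT were compared by limma 3.58.1 (R 4.3.3, lmFit and eBayes, two-sided, Benjamini-Hochberg over 16825 genes, threshold 0.05), checked on simulated data. The SE is limma's moderated one. Single values had exact permutation tests. The number of arrays limits the precision. 15 alternatives were tried.

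Members, lists and motifs were chosen with earlier results of these data known. Named with all values are the immunoproteasome genes, Pomp, members whose groups do not overlap, and per class the 3 largest differences and the lowest, beside up to 4 genes of each neighbouring list. Psmg1, Psmg2 and further single values were added after values were seen. One promoter motif is not reported here.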

Additional observations from a re-analysis of the deposited data

How the results depend on the processing

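Over 15 alternatives the members' median stayed above 0, and leaving out 1 array at a time it lay between 0.69 and 1.18. No gene was called in the comparison as reported (limma, 1733 of 16825 genes at an unadjusted p under 0.05). limma with trend and robust settings called 1 gene, none a member. With array weights 1880 genes and 25 members were called, and over the fits without 1 array the count ran from 0 to 569 genes and from 0 to 9 members, the high values without Keap1_KO B. Members with separated groups numbered 3 to 44 over those fits, where 10.7% to 31.4% of all genes were separated upward. With principal component 1, computed from these same genes, as covariate the median was 0.16 for members, 0.14 for 20S core, 0.19 for 19S and 0.093 for assembly factors. Among named genes of the neighbouring lists, differences turned to -0.20 for Calr, -0.23 for Maff, -0.37 for Nfyb and -0.067 for Txnl1. Among members they turned to -0.19 for Psma6, -0.15 for Psma7, -0.090 for Psmd9, -0.029 for Psma2 and for Psmf1, -0.021 for Psmd11, -0.016 for Psmc3ip, -0.0032 for Psme3 and 0.34 for Psme4. With the neutrophil deviation as covariate, differences of named genes turned to -0.050 for Maff, -0.054 for Nfyb and 0.10 for Psme4. Without 1 array, Psme4 ranged from -0.55 to 0.083 (without Keap1_KO C) and Nfyb from -0.085 (without WT F) to 0.42. The cause was not tested. Centring each array on its median moved the median of all genes from 0.06 to 0.17 and their share with a higher mean from 56.5% to 68.6%, and repeated quantile normalization to 0.15 and 65.9%. The members' median exceeded that of all genes by 0.80, 0.80 and 0.75 in turn. No paired analysis was possible because the groups share a single replicate letter, D.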

Other observations

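Members that varied more among the WT arrays also varied more among the Keap1_KO arrays. Across the 46 members, the SD over 3 WT arrays and the SD over 3 Keap1_KO arrays had a Spearman rho of 0.43, where all 16825 genes gave 0.55, so the relation is not larger in proteasome genes. These genes share arrays and are not independent replicates. The median SD of members was 0.42 in WT and 0.60 in Keap1_KO, against 0.28 and 0.30 over all genes.

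The clusters that Psme2, the partner of Psme1 in the interferon-induced activator, shares with its copy Psme2b did not move alike. The cluster with the symbols Psme2 and Psme2b read 8.89, 8.95 and 8.84 in WT and 9.09, 10.15 and 9.98 in Keap1_KO (difference 0.84, exact permutation p = 0.1, the smallest that 3 arrays against 3 allow). The cluster that also carries the pseudogene symbol Psme2b-ps read 14.26, 12.72 and 13.80 against 13.80, 13.54 and 12.76 (-0.23, exact permutation p = 0.7). Neither can be given to 1 gene. The cluster shared by Gm6787 and the pseudogene Psmb7-ps2 was dim, at 4.80 to 5.24 in WT and 4.88 to 5.78 in Keap1_KO.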
